A study of Mnemiopsis leidyi with 40 samples.

Results

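Ctenophores, or comb jellies, are marine animals whose embryos cleave in a stereotyped pattern and gastrulate early. They then form comb plates, which are rows of fused cilia used for swimming, together with tentacles and a sensory apical organ, and hatch as a small swimming larva called a cydippid. An early embryo holds RNA laid down in the egg beside RNA made from its own genome, and the makeup of the RNA turns over as development goes on. The comparison described here is between embryos of the comb jelly Mnemiopsis leidyi at 7 and 7.5 h of development (4 embryos) and embryos at 5.5, 6 and 6.5 h (6 embryos), 10 of the 40 embryos of the series.

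The embryos were chosen by their labelled developmental time alone, with 2 embryos at each of the 5 times. All were whole single embryos with no treatment named in the labels, and the labels set them apart by time. The deposited sheet of samples puts 1 embryo of each time in library pool 6 (replicate 1) and 1 in pool 12 (replicate 2). RNA was read by CEL-Seq, in which each embryo's RNA is barcoded, amplified by in vitro transcription and sequenced from the 3' ends of transcripts. The labels do not say whether the embryos came from separate spawnings, so p-values measure only the spread between these embryos. The files give gene models by ID without names, so no function or cell type is stated.

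Reads in gene models ranged from 1372143 to 4511124 in 9 of the 10 embryos, and 5.5 h replicate 2 held 264033. There, 3 reads corresponded to 11.4 CPM (the count scaled to the size of the library), against 0.665 to 2.19 CPM in the other 9. A difference between the windows did not pass an exact two-sided permutation test for any of 5 technical measures (gene reads, reads not aligned, reads outside gene models, ambiguous reads and the share of the 10 most abundant genes). Their smallest p was 0.248, and 0.714 after adjustment over the 5, where 4 embryos against 6 can reach no less than 0.00476.

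The 5.5 h replicate 2 embryo stood apart from the rest of its window. Its rank correlation with the other 5 embryos of 5.5 to 6.5 h lay between 0.754 and 0.823, and with the 7 and 7.5 h embryos between 0.761 and 0.806, so these ranges overlapped. Over the 38 embryos without 10 h, the one nearest to it was 6 h replicate 2, of its own window. When the comparison was made without it, the median level of the genes called lower at 7 to 7.5 h was 38.8 CPM in this embryo. That level was 75.7 to 99.8 CPM in the other 5 embryos of its window and 36.3 to 40.8 CPM at 7 to 7.5 h. For the genes called higher its median was 32.3 CPM, against 15.4 to 27.1 CPM in the other 5 and 58.0 to 73.3 CPM at 7 to 7.5 h. With all 10 embryos thinned to its 264033 reads, and over the genes tested with it as well, its median was 46 CPM for the genes called lower, against 72.7 to 93.3 CPM in the other 5 and 34.5 to 38 CPM at 7 to 7.5 h. For the genes called higher it was 42.1 CPM, against 13.7 to 24.2 CPM and 52.1 to 67.2 CPM, so that at equal depth it lay between the other embryos of its window and the later ones. These genes were chosen for setting apart the other embryos of the 2 windows. That choice favours a middle position for an embryo kept out of it, so the medians are a description. The thinned correlations of 5.5 h replicate 2 were 0.732 to 0.799 with the other 5, which among themselves had 0.788 to 0.894. With the 7 and 7.5 h embryos they were 0.738 to 0.783, within the range for its own window. Results are therefore given with this embryo and, where they move, without it.

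Between the windows, 384 of 6191 genes tested were called, which is 6.2% (edgeR quasi-likelihood test with pool as block, Benjamini-Hochberg adjusted p below 0.05). Of these, 188 (3.04% of genes tested) rose to a higher level at 7 to 7.5 h and 196 (3.17%) fell to a lower one. The median log2 fold change was 0.01 over all genes tested, while genes that rose had a median size of change of 1.68 on the log2 scale and genes that fell 1.35. At least 2-fold changes were seen in 168 of the genes that rose and 154 of those that fell, and at least 16-fold changes in 10 of each. In whole embryos, fewer cells that use a gene and less of its RNA per cell cannot be told apart. Without 5.5 h replicate 2 the count was 658 (305 higher and 353 lower), of which 369 were among the 384. The count was 133 when 5.5 h replicate 1 was left out, and 163 for replicate 1 and 147 for replicate 2 of 6 h. It was 477 for replicate 1 and 232 for replicate 2 of 6.5 h, and 640 for replicate 1 and 112 for replicate 2 of 7 h. For 7.5 h it was 140 for replicate 1 and 95 for replicate 2.

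**Figure D1:**
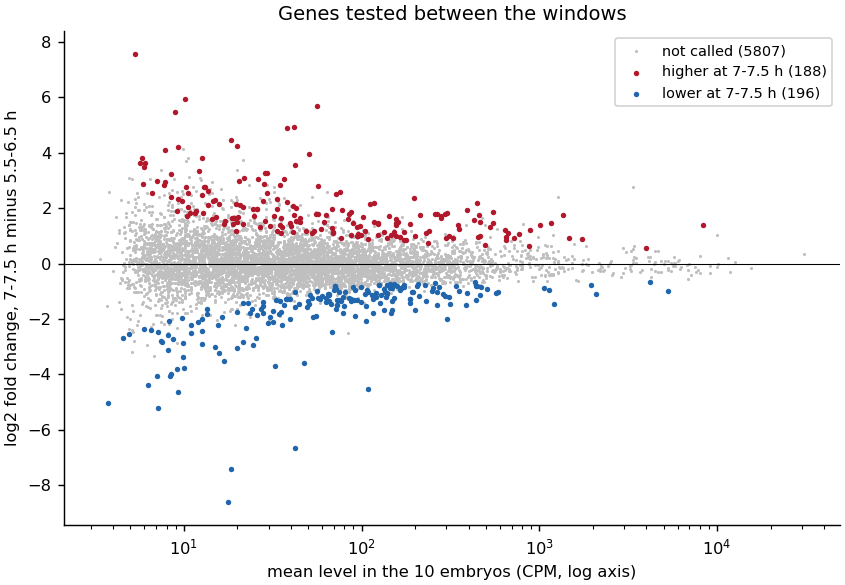
Each point is a gene tested. The x axis is its mean level over the 10 embryos in CPM on a log axis, and the y axis is its log2 fold change, 7 to 7.5 h minus 5.5 to 6.5 h. The 188 genes that rose (red) and the 196 that fell (blue) lie on both sides of 0 over a wide range of levels.

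Most genes that rose were already measured before 7 h. The median of their mean levels was 26.9 CPM at 5.5 to 6.5 h and 94.5 CPM at 7 to 7.5 h, and 3 of the 188 averaged under 1 CPM in the earlier window. For the genes that fell, the median of the mean levels was 97.3 CPM in the earlier and 39 CPM in the later window, and 10 of the 196 averaged under 1 CPM at 7 to 7.5 h. The CPM values of the 2 windows did not overlap for 123 of the genes that rose and 83 of those that fell. Over all genes tested, values did not overlap for 382, or 6.17%.

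The genes that rose together took 2.60% ± 0.633 (SD, n = 6) of gene reads at 5.5 to 6.5 h and 5.96% ± 0.443 (SD, n = 4) at 7 to 7.5 h. The genes that fell took 4.52% ± 0.579 (SD, n = 6) and 2.16% ± 0.134 (SD, n = 4). These shares describe genes chosen in the same embryos and carry no test. They were unevenly spread, with 50% of the summed share coming from 11 of the 188 and 12 of the 196 genes.

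ML051323a had no read in any of the 6 embryos of 5.5 to 6.5 h. Its level was 15.4 and 12.1 CPM in the 7 h embryos and 12.6 and 12.7 CPM in the 7.5 h embryos, so the windows did not overlap. It had 0 against 105 reads, and 3 reads over the earlier window were put in as the floor. On that footing it was 38.2-fold higher at 7 to 7.5 h, with a lower counting limit of 30.5 (edgeR adjusted p = 0.00458). The gene was also read before this window, at 7.42 and 9.14 CPM at 2 h and 6.05 and 8.33 CPM at 3 h. At 4 h the embryos stood at 0 and 6.48 CPM. Both 8 h embryos were at 0, and the 8.5 h embryos at 8.48 and 0 CPM.

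ML135610a ranged from 0 to 3.23 CPM at 5.5 to 6.5 h, with a median of 0. At 7 h it stood at 7.72 and 22.1 CPM and at 7.5 h at 46.7 and 20.1 CPM, each above every earlier embryo. From 3 reads against 190, its ratio was 69.1 (95% counting interval 23.3 to 338, edgeR adjusted p = 0.00433). The ratio rests on few reads, and the fitted log2 fold change of 5.96 became 4.99 with 7.5 h replicate 1 left out, 6.77 with replicate 1 of 6 h and 6.56 with replicate 2 of 5.5 h left out. In later embryos ML135610a stood at 1.22 and 1.14 CPM at 8 h and at 33.9 and 7.81 CPM at 8.5 h. At 12 h the embryos were at 0 and 44.6 CPM. Neither ML051323a nor ML135610a was tested in the comparisons of other embryos described below.

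Among the genes that fell, ML231814a ranged from 6.46 to 78.2 CPM at 5.5 to 6.5 h, with a median of 55.3 CPM, and the lowest value was that of 5.5 h replicate 2. It stood at 4.91 and 2.05 CPM at 7 h and at 5.93 and 4.68 CPM at 7.5 h. All later embryos were below all earlier ones (edgeR adjusted p = 0.00332, log2 fold change -3.68 ± 0.52 SE). ML04411a ranged from 25.9 to 137 CPM with a median of 66.3 CPM in the earlier window, and again 5.5 h replicate 2 was the lowest. Its later values were 2.11 and 3.34 CPM at 7 h and 5.19 and 18.1 CPM at 7.5 h, which did not overlap with the earlier ones (log2 fold change -3.58 ± 0.54 SE, edgeR adjusted p = 0.00433, and -4.38 without 7.5 h replicate 2).

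The called genes were then followed over 6 windows, the 2 compared and 4 made of 28 other embryos (without 10 h, where 1 library was nearly empty). Of the 188 genes that rose, 95 (50.5%) had their highest mean level at 7 to 7.5 h and 77 (41%) at 11 to 20 h, against 17.5% and 22.8% of all genes tested. Of the 196 that fell, 93 (47.4%) had their lowest at 7 to 7.5 h and 90 (45.9%) at 11 to 20 h, against 10.4% and 32.8%. The embryos that made the call are among these windows, so the choice of genes bears on these shares and nothing is read from them. In embryos that the call did not use, the genes that rose took 2.1% ± 0.865 (SD, n = 8) of gene reads at 0 to 3 h, 2.28% ± 0.755 (SD, n = 6) at 4 to 5 h, 5.37% ± 0.843 (SD, n = 6) at 8 to 9 h and 7.30% ± 1.10 (SD, n = 8) at 11 to 20 h. For the genes that fell these shares were 6.31% ± 1.59, 5.30% ± 0.847, 2.76% ± 0.684 and 2.07% ± 0.508, with SD and the same numbers of embryos.

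**Figure D2:**
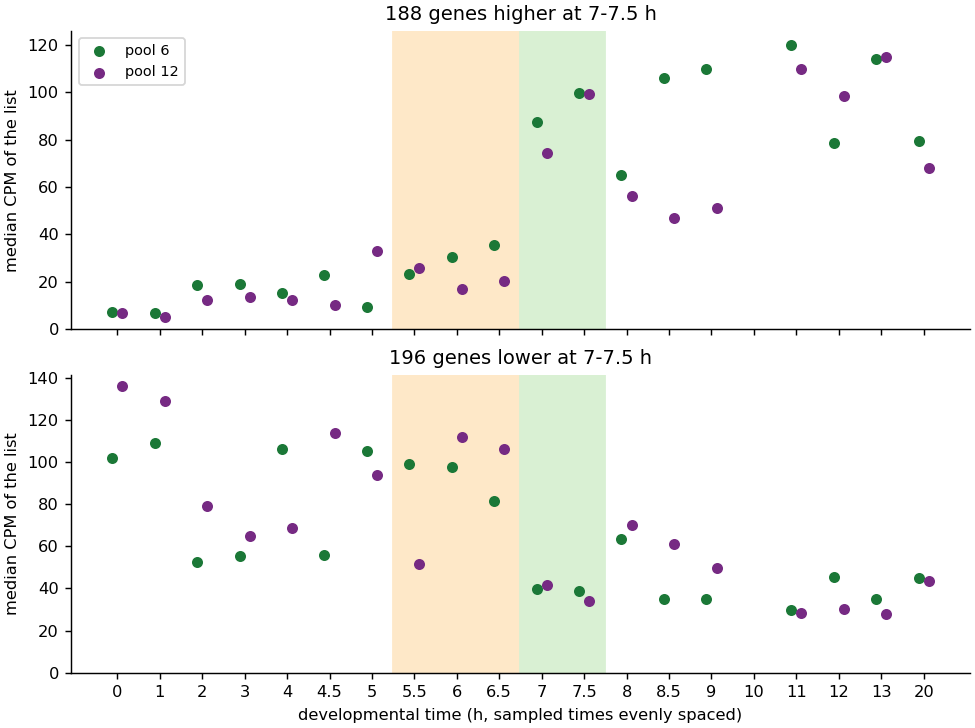
Median level in CPM of the 188 genes that rose (top) and the 196 that fell (bottom) in each embryo, by developmental time in h with sampled times evenly spaced and pools in colour. The 5.5 to 6.5 h window is shaded orange and the 7 to 7.5 h window green. The medians of the genes that rose lay between 74.4 and 99.6 CPM at 7 to 7.5 h, and at 8 h they stood at 65.2 and 56.4 CPM.

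The course of the medians was not a single step. For the genes that rose, the medians in the 10 embryos lay between 17.0 and 35.4 CPM before 7 h and between 74.4 and 99.6 CPM from 7 h. In the embryos just after, they were 65.2 and 56.4 CPM at 8 h, 106 and 46.8 CPM at 8.5 h and 110 and 51.3 CPM at 9 h, replicate 1 first. For the genes that fell, the medians at 7 to 7.5 h lay between 34.1 and 41.7 CPM and those at 8 h were 63.4 and 70.2 CPM. In the earlier window they lay between 81.6 and 112 CPM, except for 51.7 CPM in 5.5 h replicate 2. Both 8 h embryos therefore lay between the 2 windows for the genes that rose, and for the genes that fell only when 5.5 h replicate 2 is set aside.

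A comparison of 8 to 9 h with 4 to 5 h embryos shares no embryo with the first one. It called 1910 of 5866 genes (32.6%), of which 1088 (18.5%) were higher and 822 (14%) lower at 8 to 9 h. Of the 188 genes that rose at 7 to 7.5 h, 163 were tested and 97 were called higher, 59.5% of those tested and 8.92% of all genes called higher. The opposite call was made for 2 of them, and their median log2 fold change was 1.58, against -0.03 over all genes tested. Of the 196 genes that fell, 181 were tested, and 74 were called lower, 40.9% of those tested and 9% of all genes called lower. The opposite call was made for 1, and their median was -0.70.

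Embryos of 11 to 20 h against 0 to 3 h gave a wider change, with 4487 of 6572 genes called (68.3%), 2265 higher (34.5%) and 2222 lower (33.8%). Of 177 genes that rose at 7 to 7.5 h and were tested, 124 were called higher (70.1%, and 5.47% of all called higher) and 9 lower, with a median log2 fold change of 2.06. Of 175 that fell and were tested, 128 were called lower (73.1%, and 5.76% of all called lower) and 6 higher, with a median of -1.26. The median over all genes tested was 0.

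**Figure D3:**
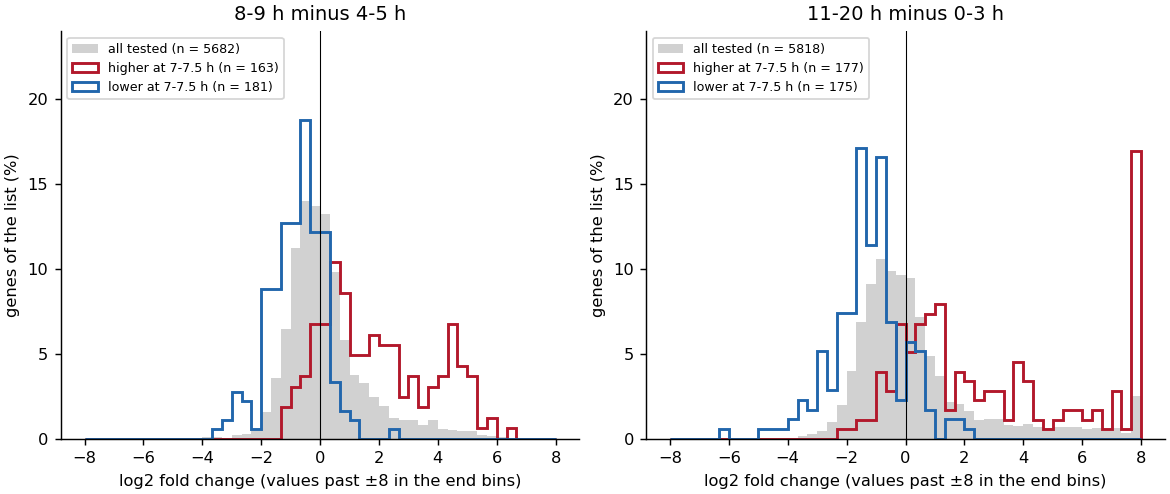
Log2 fold change in embryos outside the 10, for 8 to 9 h minus 4 to 5 h (left) and 11 to 20 h minus 0 to 3 h (right), as the percentage of each list of genes per bin. Grey is every gene tested in both comparisons, red the genes that rose at 7 to 7.5 h and blue those that fell. The red distributions lie to the right of the grey (list medians 1.58 and 2.06) and the blue to the left (-0.70 and -1.26).

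The genes that rose followed 4 courses, defined by their level at 0 to 3 h (under 1 CPM or not) and by whether the 11 to 20 h level was at least 50% of that at 7 to 7.5 h. The largest of these groups, 137 of 188 genes (72.9%), was present at 0 to 3 h and kept its level. Its median level went from 17.7 CPM at 0 to 3 h over 37.8 CPM at 5.5 to 6.5 h to 100 CPM at 7 to 7.5 h and 144 CPM at 11 to 20 h. In 32 genes (17%) the level was present early and lost again, with 129 CPM at 7 to 7.5 h and 37 CPM at 11 to 20 h. Genes under 1 CPM at 0 to 3 h numbered 16 (8.51%) with a kept level and 3 (1.6%) with a lost one. The 16 had a median of 0.322 CPM at 0 to 3 h, 5.95 CPM at 5.5 to 6.5 h and 44.4 CPM at 7 to 7.5 h. The genes were chosen for a high level at 7 to 7.5 h, which also sets the limit between kept and lost. Shares over all genes tested were not taken, so the shares of the courses are a description.

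ML22322a was the gene named for the first course. It ranged from 0 to 19.4 CPM at 5.5 to 6.5 h (median 1.51 CPM), with the highest value in 5.5 h replicate 2, where it rested on 6 reads. It stood at 102 and 68.8 CPM at 7 h and at 170 and 193 CPM at 7.5 h, above every earlier embryo of the comparison (log2 fold change 5.68 ± 0.70 SE, edgeR adjusted p = 0.00193, and 6.34 without 5.5 h replicate 2). In the other embryos the gene alternated between high and near 0. It was at 106 and 118 CPM in the 2 h embryos and 105 and 89.3 CPM in the 3 h embryos. At 4 h the embryos stood at 0 and 122 CPM and at 4.5 h at 44.7 and 0 CPM. Both 8 h embryos were near 0, at 0.612 and 1.14 CPM. Same-age embryos stood far apart again at 8.5 h (186 and 5.2 CPM), 9 h (171 and 0 CPM) and 12 h (2.4 and 479 CPM). Thus the 7 to 7.5 h level was one of several high levels for this gene, and not its only one.

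ML005135a, placed by its window means in the course that was present early and lost later, ranged from 0 to 16.2 CPM at 5.5 to 6.5 h with a median of 1.39 CPM. It was at 59.7 and 50.8 CPM at 7 h and 23.7 and 40.8 CPM at 7.5 h, with no overlap (log2 fold change 4.23 ± 0.72 SE, edgeR adjusted p = 0.00699). As with ML22322a, the other embryos alternated, with 29.7 and 56.1 CPM at 2 h, 0 and 33.1 CPM at 4 h, 39.3 and 2.13 CPM at 4.5 h, 78.4 and 0 CPM at 8.5 h and 13.7 and 2.47 CPM at 9 h. Its later levels were 39.9 and 30.8 CPM at 11 h, 1.37 and 4.05 CPM at 12 h, 33.5 and 34.5 CPM at 13 h and 1.5 and 0 CPM at 20 h. The 11 and 13 h embryos were thus within the 7 to 7.5 h range, and the lower 11 to 20 h mean came from 12 and 20 h.

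Of the genes under 1 CPM at 0 to 3 h, ML03982a kept its level by its window mean. It ranged from 1.44 to 12.7 CPM at 5.5 to 6.5 h (median 5.3 CPM) and stood at 14 and 33.4 CPM at 7 h and 88.9 and 44.2 CPM at 7.5 h, again without overlap (log2 fold change 3.10 ± 0.59 SE, edgeR adjusted p = 0.0119, and 0.0907 without 7.5 h replicate 1). The gene averaged 0.270 CPM at 0 to 3 h and 27.9 CPM at 11 to 20 h. Single embryos of the last window were far apart, with 26.9 and 48.7 CPM at 11 h, 1.37 and 49.3 CPM at 12 h, 15.5 and 79.5 CPM at 13 h and 0.748 and 0.825 CPM at 20 h. ML38862a, which lost its level, averaged 1.67 CPM ± 2.11 (SD, n = 6) in the earlier window and 16.9 CPM ± 11.9 (SD, n = 4) in the later one (edgeR adjusted p = 0.0383). The call was lost in 10 of 21 alternative analyses, among them those that left out replicate 2 of 6, 6.5, 7 or 7.5 h or replicate 1 of 5.5 or 7.5 h (edgeR adjusted p = 0.0659 to 0.13).

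The genes that fell also had 4 courses, defined by whether the 0 to 3 h level was at least 50% of that at 5.5 to 6.5 h and whether the 11 to 20 h level was over 2 times that at 7 to 7.5 h. Most of them, 136 of 196 (69.4%), were present at 0 to 3 h and stayed low, with medians of 147 CPM at 0 to 3 h, 138 CPM at 5.5 to 6.5 h, 63.7 CPM at 7 to 7.5 h and 50.4 CPM at 11 to 20 h. In 34 genes (17.3%) the level was present early and came back, with 32.8 CPM at 5.5 to 6.5 h, 6.22 CPM at 7 to 7.5 h and 22.2 CPM at 11 to 20 h. A further 15 (7.65%) were low at first and low at the end, with a median of 108 CPM at 5.5 to 6.5 h. The last 11 (5.61%) were low at first and came back. Both limits use the levels of the 2 windows in which the genes were chosen, a choice that favours a high level before 7 h and a low one after. These shares, too, were not set beside all genes tested and are a description.

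Of the course that was present early and came back, ML04122a ranged from 8.44 to 25.9 CPM at 5.5 to 6.5 h (median 13.7 CPM) and from 1.03 to 2.22 CPM at 7 to 7.5 h, without overlap (log2 fold change -3.37 ± 0.59 SE, edgeR adjusted p = 0.00758). At 20 h it stood at 23.2 and 38.8 CPM, and in the 6 embryos of 11 to 13 h between 3.71 and 12.2 CPM. Early on it was at 12.7 to 31.5 CPM at 0 and 1 h and at 0.605 to 1.39 CPM at 2 and 3 h, so both of its window means hide unlike times. The gene named for the course that stayed low, ML22254a, averaged 11.1 CPM ± 2.67 (SD, n = 6) before and 1.82 CPM ± 2.25 (SD, n = 4) after (edgeR adjusted p = 0.0374). This call was lost in 15 of 21 alternatives, and on leaving out any embryo but 5.5 h replicate 2 and 6.5 h replicate 1 (edgeR adjusted p = 0.0512 to 0.103), where its log2 fold change of -2.79 went as far as -3.64 without 7 h replicate 2. In pool 6 alone the change of ML22254a was -7.2, with no read in both later embryos, and in pool 12 -1.77. The difference between pools was not called (edgeR adjusted p = 0.431). The gene stood at 8.73 CPM in 8 h replicate 2 and 11.1 CPM in 9 h replicate 2, and at 0 to 4.9 CPM in the other embryos of 8 to 9 h. ML37636a was low at first and back later by its window means only. It went from 15.2 CPM ± 11.8 (SD, n = 6) to 2.05 CPM ± 1.72 (SD, n = 4), with an edgeR adjusted p of 0.0405. The earlier mean includes 35.6 CPM, from 11 reads, in 5.5 h replicate 2, against 5.63 to 23.2 CPM in the rest of that window. The label of low at first hinges on that value. At 0 to 3 h the gene averaged 7.48 CPM, with 6.48 to 17.4 CPM at 0 and 1 h. At 11 to 20 h the gene averaged 4.74 CPM, below its 0 to 3 h mean. It lost its call in 12 of 21, and on leaving out replicate 1 of 5.5, 6, 7 or 7.5 h or replicate 2 of 6.5, 7 or 7.5 h (edgeR adjusted p = 0.0573 to 0.121), with log2 fold changes from -2.27 without 7 h replicate 2 to -3.47 without 7.5 h replicate 1. ML17996a, low at both ends, went from 10.5 CPM ± 5.09 (SD, n = 6) to 1.99 CPM ± 1.09 (SD, n = 4), with an edgeR adjusted p of 0.0312. Its call was lost in 8 of 16, and on leaving out any of the 4 later embryos (edgeR adjusted p = 0.0515 to 0.0978). The gene was not tested without replicate 1 of 5.5 or 6.5 h or replicate 2 of 5.5 or 6 h. It kept its call without 6 h replicate 1 (edgeR adjusted p = 0.0454) and without 6.5 h replicate 2 (edgeR adjusted p = 0.0283).

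Outside the comparison, the first 2 genes named as falling were tested in the other embryos. ML231814a was lower at 8 to 9 h than at 4 to 5 h (log2 fold change -2.86, edgeR adjusted p = 0.0247) and lower at 11 to 20 h than at 0 to 3 h (-4.58, edgeR adjusted p = 0.000168). Its early embryos were unlike, with 116 to 185 CPM at 0 and 1 h and 3.24 to 12.8 CPM at 2 and 3 h. The 4 to 5 h embryos ranged from 1.79 to 176 CPM, so the means of both windows hide unlike embryos. ML04411a showed no call in either comparison, with log2 fold changes of 0.16 (edgeR adjusted p = 0.889) and -0.05 (edgeR adjusted p = 0.95), and its embryos stood at 83.9 and 93 CPM at 8 h, 5.93 and 2.6 CPM at 8.5 h and 20.6 and 33.4 CPM at 9 h.

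**Figure D4:**
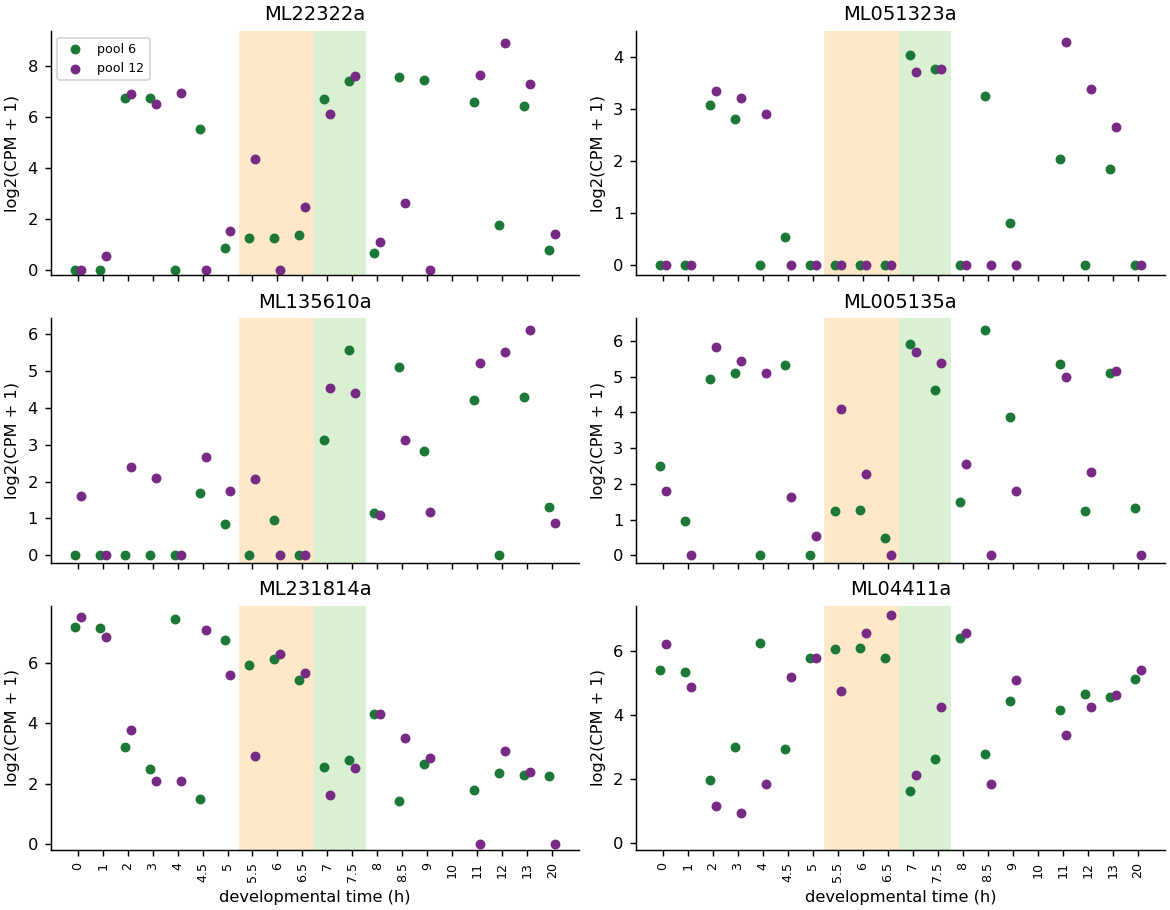
Level in log2(CPM + 1) of 6 named genes in each embryo by developmental time in h, with pools in colour, the 5.5 to 6.5 h window shaded orange and the 7 to 7.5 h window green. ML22322a, at 68.8 to 193 CPM at 7 to 7.5 h, was near 0 in both 8 h embryos and differed between the same-age embryos of 4, 4.5, 8.5, 9 and 12 h.

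Each pool was also fitted alone, on 3 embryos against 2. Pool 6 gave 29 calls of 6238 genes (0.465%), 17 higher (0.273%) and 12 lower (0.192%), and pool 12 gave 188 of 6394 (2.94%), 154 higher (2.41%) and 34 lower (0.532%). The 17 genes called higher in pool 6 all had a positive log2 fold change in pool 12, with a median of 1.41, and 1 was called there (5.88% of the 17, 0.649% of the 154). Of the 147 genes called higher in pool 12 and tested in pool 6, 120 were positive, with a median of 0.68. All 10 genes called lower in pool 6 and tested in pool 12 were negative there (median -2.99), and 5 were called. Of the 34 called lower in pool 12, 33 were negative in pool 6 (median -1.20). No gene was called in opposite directions, and over all genes tested the medians were 0.03 in pool 6 and 0 in pool 12.

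Whether the change differed between the pools was tested for each gene by the product of pool and window. The edgeR test called 0 of 6191 genes (0%), with 500 at an unadjusted p below 0.05, and no other tool was run on it. Leaving out 7.5 h replicate 1 gave 27 calls and leaving out 5.5 h replicate 1 gave 1. In the first of these, pool 6 has a lone later embryo, which is assumed to vary like the others. The smallest adjusted p, 0.0992, belonged to ML04825a among others. In pool 6 this gene stood at 786, 1260 and 2540 CPM at 5.5, 6 and 6.5 h and at 741 and 859 CPM at 7 and 7.5 h, and in pool 12 at 226, 226 and 269 CPM and then 1260 and 1610 CPM. The pools thus went opposite ways, with log2 fold changes of -0.88 and 2.43. ML082318a was alike, with -0.63 in pool 6 and 1.37 in pool 12 (edgeR adjusted p of the difference 0.0992).

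The steps between neighbouring times rest on 2 embryos against 2. None of the 4 steps had a gene called by edgeR after adjustment over the 4 (0%), with 156, 110, 491 and 153 genes at an unadjusted p below 0.05 for 5.5 to 6 h, 6 to 6.5 h, 6.5 to 7 h and 7 to 7.5 h. DESeq2 called 1, 1, 26 and 1. Without 7 h replicate 2, edgeR called 16 genes from 6.5 to 7 h and 19 from 7 to 7.5 h, where the lone 7 h embryo is assumed to vary like those of the other times. The genes called between the windows were chosen in these same embryos across 7 h, which favours a large step from 6.5 to 7 h, so their steps are a description. The 188 genes that rose had median log2 fold changes of 0.08, 0.33, 1.35 and 0.19 over the 4 steps, and the 196 that fell 0.28, -0.17, -1.30 and -0.07. Over all genes the median size of change was 0.39, 0.33, 0.46 and 0.34. When the 7 h embryos were counted with the earlier window instead, edgeR called 0 of 7039 genes, with 697 at an unadjusted p below 0.05, and DESeq2 called 37.

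At the level of whole embryos, the number of genes detected was compared after thinning each embryo to 264033 reads. It was 7114 ± 462 (SD, n = 6) at 5.5 to 6.5 h and 7513 ± 357 (SD, n = 4) at 7 to 7.5 h, a difference of 399 genes (exact two-sided permutation test, p = 0.176). The position of each embryo between its flanking times was taken as its mean rank correlation with the 8 to 9 h embryos minus that with the 4 to 5 h embryos. It averaged -0.0733 ± 0.0535 (SD, n = 6) in the earlier and 0.0316 ± 0.0789 (SD, n = 4) in the later window, a difference of 0.105 (exact two-sided permutation p = 0.0476, and 0.0952 after adjustment over these 2 tests). These tests take no account of pool. With embryos exchanged only within pools, the exact permutation p was 0.13 for the genes detected and 0.07 for the position (0.13 for both after adjustment), where the smallest possible is 0.01. The position differed by 0.0565 in pool 6 and 0.153 in pool 12, and the genes detected by 43.7 and 754. With each embryo left out in turn and no account taken of pool, the unadjusted exact permutation p for the genes detected lay between 0.0794 and 0.429. For the position it lay between 0.0119 and 0.107. In position the windows overlapped. Both 5.5 h embryos were at -0.113, the 6 h embryos at -0.0633 and -0.126 and the 6.5 h embryos at 0.00761 and -0.0317. The 7 h embryos stood at -0.0822 and 0.0387 and the 7.5 h embryos at 0.0827 and 0.087, so that 7 h replicate 1 lay below both 6.5 h embryos.

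**Figure D5:**
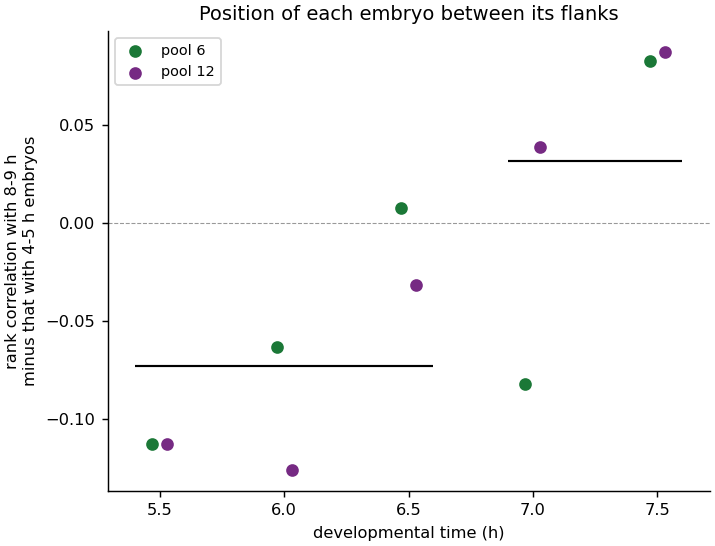
Each point is an embryo by developmental time in h, slightly offset by pool. The y axis is the mean Spearman correlation with the 8 to 9 h embryos minus that with the 4 to 5 h embryos, and horizontal lines are window means. The 7.5 h embryos are the highest, at 0.0827 and 0.087, and 7 h replicate 1, at -0.0822, lies among the earlier embryos.

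Embryos of 5.5 to 6.5 h had a median pairwise rank correlation of 0.867 (15 pairs), embryos of 7 to 7.5 h 0.899 (6 pairs), and pairs between the windows 0.83 (24 pairs). Without 5.5 h replicate 2 the first was 0.894 (10 pairs) and the last 0.841 (20 pairs). The pairs share embryos and differ in depth, and these values are a description.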

How the data were processed

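The table the authors deposited holds raw counts, whole numbers for each gene model in each embryo, and their sheet of samples holds other values, none of them a measurement, among them the library index (6 or 12) that is used here as pool. CASAVA 1.8, HTSeq 0.5.4p3 and Bowtie2 2.1.0 are named, with no order, by the submitters' processing notes. Not given in the sources used here are the build, the annotation, the strand setting and whether reads with one molecular identifier were merged. The counts are thus treated as reads and intervals and floors cover counting error only. Genes with close copies or overlapping neighbours are uncertain.

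Of 16548 gene models, 3425 had no read in the 10 embryos. Totals that name no gene were left out of library sizes and tests. filterByExpr (count minimum 10) left 6191 genes, tested with edgeR 4.0.16 in R 4.3.3 (TMM, quasi-likelihood F test, pool and window as terms, biological coefficient of variation 0.368) and adjusted by Benjamini-Hochberg. DESeq2 1.42.0 was an alternative. Levels are TMM-scaled CPM over the 38 embryos without 10 h. Standard errors (SE) are approximate, the size of the log2 fold change divided by the root of F. The test script was checked on simulated data.

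None of the IDs (0 of 16548) matched a RefSeq table of 19625 genes, so gene lists and cell type markers could not be built. Named genes are, per comparison, at most 2 that rose and 2 that fell with the largest change among called genes with at least 100 reads and no overlap, and 1 more by the same rule for each course. For the difference between pools they are the 2 with the smallest p. The embryos, comparisons and rules were chosen with earlier results of these data known. Embryos of different times share a pool, per the deposited sheet, and each pool has 1 embryo of every time. The differences between pools correlated between times with a median of 0.07 (range -0.05 to 0.54, 10 pairs of times), of which 4 were over 0.1.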

Additional observations from a re-analysis of the deposited data

Results flagged for a closer look

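Among 46 groups of 4 to 10 embryos examined for a single value far from the rest, 4 had one. The nominal rate of such values by chance is about 1 in 20, and the rate for levels resting on a few reads was not tested. In 3 of the 4 the embryo was 5.5 h replicate 2, whose library held 264033 reads. ML135610a stood there at 3.23 CPM, against 0.938 CPM in the nearest embryo of its window. ML22322a stood at 19.4 CPM, with the nearest at 4.64 CPM, and ML005135a at 16.2 CPM, with the nearest at 3.84 CPM. These values rest on 1, 6 and 5 reads, and 3 reads in that library correspond to 11.4 CPM. Without it the log2 fold changes were 6.56 for ML135610a (edgeR adjusted p = 0.00113), 6.34 for ML22322a (edgeR adjusted p = 7.8e-05) and 4.78 for ML005135a (edgeR adjusted p = 0.000633). The other value was the gene reads of 7 h replicate 2, at 4510000 against 1870000 in the nearest embryo of 7 to 7.5 h. Without that embryo 112 genes were called.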

How the results depend on the processing

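The number of genes called depended on the analysis. Against 384 (188 higher and 196 lower), DESeq2 called 818 (431 and 387), no filter on low counts gave 961 (635 and 326), a test against a 1.5-fold change 78 (38 and 40) and thinning all embryos to 264033 reads 149 (78 and 71). Without the replicate block, which leaves the pool out, 254 were called, 125 of them lower. A 5-level factor for time gave 114 lower, a fit of all 40 embryos 331 higher, and a straight line over time 72 lower. With 7 h in the earlier window there were 0, with 0 higher and 0 lower. Scaling by median ratios (375) or total counts (362), a minimum of 10 CPM (352) and leaving out both 5.5 h embryos (350) stayed within 1.5 times. Leaving out each embryo in turn gave 95 to 658 calls, 51 to 422 higher and 44 to 353 lower. For the steps, DESeq2 gave 1, 1, 26 and 1, and leaving out each embryo gave 0 to 16 from 6.5 to 7 h and 0 to 19 from 7 to 7.5 h. For the difference between pools that range was 0 to 27. The position between flanking times differed by 0.102 with Pearson correlations (exact permutation p = 0.0524), and by 0.0863 to 0.143 with each embryo left out (exact permutation p = 0.0119 to 0.107). With the replicate block, as arrangements within pools added after seeing the data, the difference of 0.105 had an exact permutation p of 0.07. The cause of these changes was not tested. Without the replicate block ML082318a, called in neither, went from a log2 fold change of 0.41 to -0.14, and no other named gene changed sign in any alternative. The comparisons of 8 to 9 h and 11 to 20 h kept their counts of the called genes within 1.5 times, including 2 alternatives for 8 to 9 h added after seeing the data. Depth limits the low genes most, since 3 reads were 11.4 CPM in the shallowest embryo.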

Other observations

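Same-age embryos outside the comparison differed in the called genes. At 4.5 h, replicate 1 minus replicate 2 gave a median difference of 0.84 in log2(CPM + 1) over the 188 genes that rose and -1.01 over the 196 that fell, against 0 over all genes tested. At 9 h the medians were 0.69 and -0.65, against 0.06. At 8.5 h they were 1.06 and -0.59, against 0.43, where replicate 2 was a shallow library. At 12 h they had the other sign, -0.43 and 0.46, against 0.02. The 8 h embryos were close, with 0.02 and -0.24, against -0.07.

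Differences of at least 4-fold between the 4.5 h embryos were seen in 23.9% of the genes that rose, 17.3% of those that fell and 6.44% of all genes tested. At 9 h these shares were 18.6%, 13.8% and 7.82%, and at 8 h 1.6%, 1.02% and 0.969%. For ML231814a, which fell at 7 to 7.5 h, the 4 h embryos stood at 176 and 3.24 CPM and the 4.5 h embryos at 1.79 and 135 CPM. These are descriptions. Same-age embryos are always from different pools, so pool and embryo cannot be told apart, and the part of depth was not tested.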
